A study of Homo sapiens with 6 samples.

Results

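Chromatin remodellers are ATP-driven machines that slide, evict or exchange nucleosomes. Their 40 genes in the RNA sequencing table of TFDP1-targeted and control eHAP cells are described here. They were taken by a rule on symbols, set with earlier results of these data known. It covers the SMARCA to SMARCE genes, CHD1 to CHD9, the BAZ1 and BAZ2 genes, INO80 and its lettered subunits, ARID1A, ARID1B, ARID2, PBRM1, BPTF, ATRX, RSF1, EP400 and SRCAP. These 40 of 15794 genes are all protein coding in GENCODE 29. They hold 19 ATPases and 21 genes of partner or accessory subunits.

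The cells are eHAP, a human line with a single set of chromosomes that goes back, through HAP1, to a chronic myeloid leukaemia. All 6 samples expressed Cas9 and were selected with puromycin from 24 to 72 h after transfection, with collection on day 5. One group of 3 biological replicates is labelled as a TFDP1 knockout and the other group of 3 as wild type with no knockout gene. Guides were delivered by plasmid, and the labels give neither the share of edited cells nor any isolation of single clones. Before extraction, 500000 eHAP cells were mixed with 10000 S2 cells from Drosophila.

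Each gene has 5 values in the authors' deposited table: its level in log2 CPM (counts scaled to library size) averaged over the samples, the log2 fold change of the comparison, a likelihood ratio, its p-value and the FDR, printed below as adjusted p. No values per sample were analysed here, so no spread between replicates can be shown, and the depth of the libraries is unknown. An approximate standard error (SE) was derived for each gene from the fold change and the likelihood ratio, and the intervals below are approximate 95% intervals built from it. In bulk RNA, fewer cells of a type and less RNA per cell cannot be told apart.

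TFDP1, which encodes the DNA-binding partner of the E2F transcription factors, had a log2 fold change of 1.17 (approximate SE 0.03) at 226 CPM in the authors' deposited table. The table does not say which group is the numerator. A gene with an authors' FDR under 0.05 is therefore called positive when its fold change had the sign of TFDP1's, so that it was higher where TFDP1 transcript was higher, and negative when it had the opposite sign. Of 10 blood markers 4 were in the table, with a summed mean level of 21.1 CPM, and PTPRC, GATA1, SPI1 and the globin genes HBB and HBG1 were not among them. Fibroblast markers present summed to 665 CPM (6 of 8 listed), epithelial to 53.7 CPM (4 of 6) and neuronal to 424 CPM (6 of 8). VIM alone stood at 487 CPM, and NES and TUBB3 at 185 and 171 CPM. Of the blood markers KIT was negative (-0.98), ITGA2B positive (0.49) and 2 were not called. Among the others, 5 fibroblast, 3 epithelial and 4 neuronal markers were negative and 1, 0 and 1 were positive, where 39.5% of all genes were called. Some of these differences were large, with log2 fold changes of -3.47 for SPARC, -2.94 for KRT8, -1.13 for TUBB3 and 1.71 for SYP. NES was at -0.90, VIM at -0.30 and FN1 at 0.25. The part of any difference in cell make-up or state in the values below was not tested.

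The remodellers fall into families named after their ATPase. SWI/SNF complexes, called BAF and PBAF in mammals, open chromatin at enhancers and promoters. ISWI complexes space nucleosomes, CHD proteins include the motor of the repressive NuRD complex, and INO80, SRCAP and EP400 handle the histone variant H2A.Z.

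As a group the remodellers differed by small amounts, more often to the positive side. Of the 40 genes 18 were positive, 6 negative and 16 not called in the authors' deposited table. Over all genes 17.3% were positive and 22.2% negative, 39.5% in all. The remodellers are mostly abundant, with a median of 127 CPM and 36 of 40 at or above the level of the median gene, 23.5 CPM. At or above that level 25.4% of genes were positive and 26.5% negative, 51.9% in all. The 36 remodellers there gave 17 positive and 5 negative, which is 47.2% and 13.9%, so that the share called in either direction (61.1%) was 9.2 points from its background, with positive calls above and negative calls below theirs. When the ribosomal protein genes' median was taken as the zero of the fold changes, the 40 gave 26 positive and 3 negative, against 26.8% and 16.1% of all genes. Those shares cover genes of any level, and none at or above the median level was computed for this setting.

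The median log2 fold change was 0.08 for the remodellers, -0.03 for all genes and -0.003 for genes at or above the median level. In absolute size the median log2 fold change at or above the median gene's level was 0.15 for the 36 remodellers and 0.15 for all genes. Of those 36 only SMARCA2 passed 1.5-fold (2.78%), against 3.82% of all genes at that level. ATPases gave 9 positive and 3 negative of 19, and the other subunits 9 and 3 of 21. The called shares were 63.2% and 57.1%, against 51.9% of all genes at or above the median gene's level. Of the ATPases 18 stood there, as did 18 of the other subunits.

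**Figure D1:**
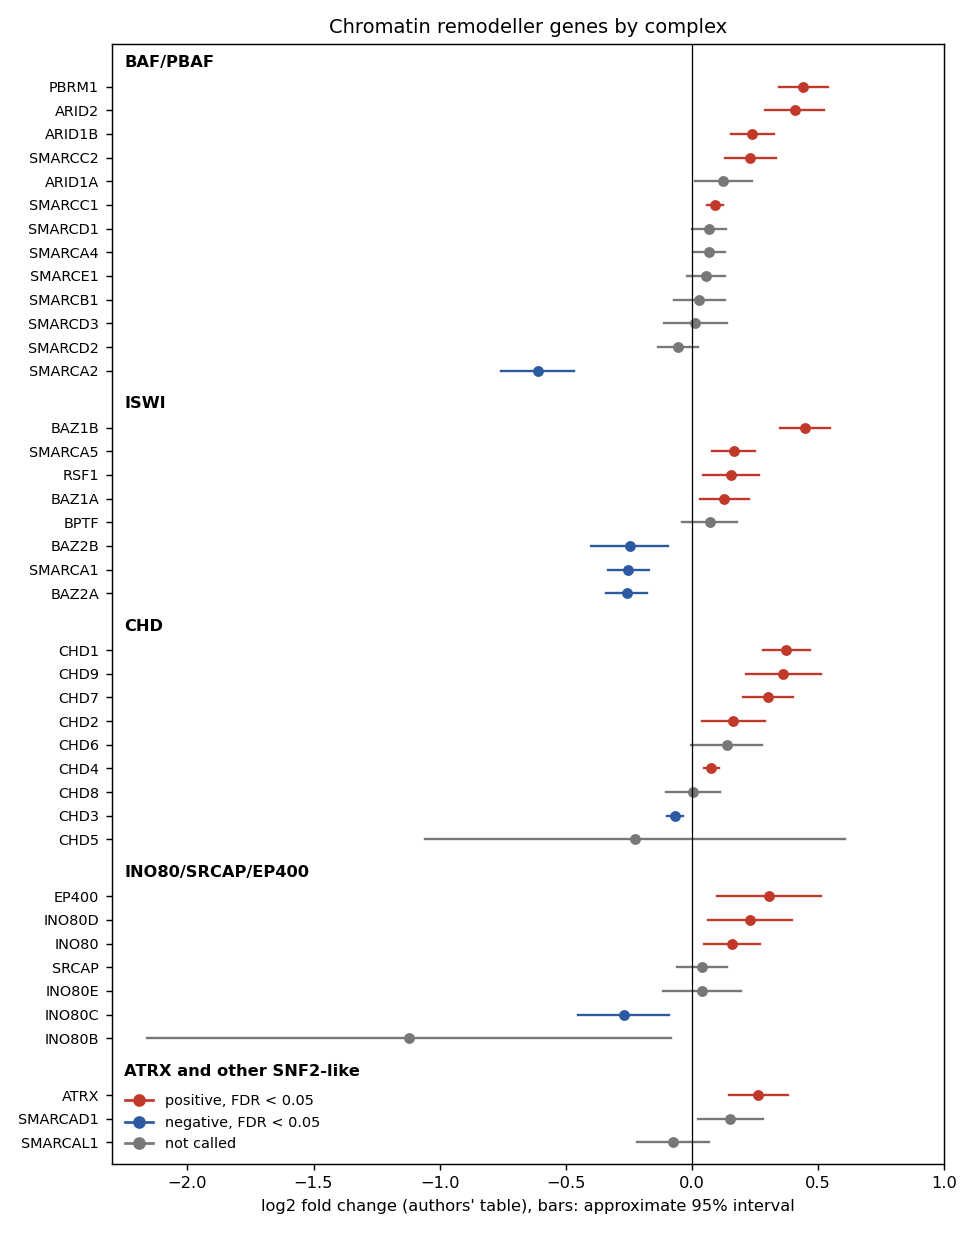
Log2 fold change of the 40 remodeller genes (x axis) by complex, with approximate 95% intervals; colour gives the call at the authors' FDR. PBRM1, ARID2 and BAZ1B lie furthest to the positive side at 0.41 to 0.45, SMARCA2 lies at -0.61, and the wide intervals of INO80B and CHD5 belong to levels under 1 CPM.

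**Figure D2:**
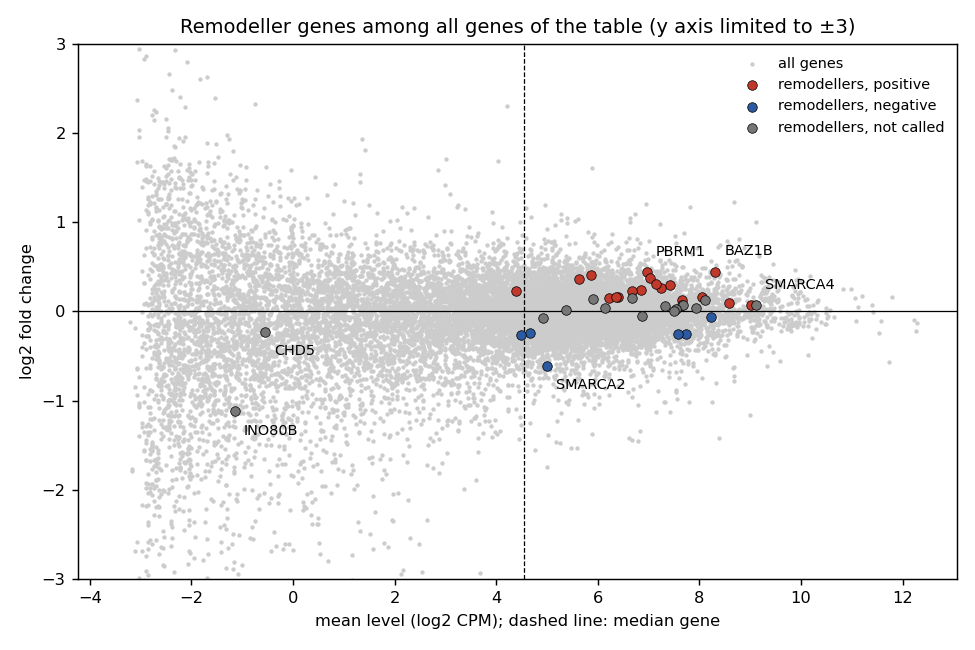
Log2 fold change (y axis, limited to ±3) against mean level in log2 CPM (x axis) for all 15794 genes in grey and the 40 remodellers in colour. All but 4 remodellers lie right of the dashed median level, within a narrow range around 0.

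The 4 promoters below belong to the called genes with the smallest p on each side, and are shown because they are the starts of the remodeller genes that differed most firmly. BAZ1B (chromosome 7, positions 73440398 to 73522278, minus strand, ENSG00000009954.10) and PBRM1 (chromosome 3, 52545352 to 52685917, minus, ENSG00000163939.18) were positive. SMARCA2 (chromosome 9, 1980290 to 2193624, plus, ENSG00000080503.23) and BAZ2A (chromosome 12, 56595596 to 56636816, minus, ENSG00000076108.11) were negative. Gene positions are those of GENCODE 29 on GRCh38. The windows are RefSeq's on GRCh38.p14, from 250 bases before to 50 bases after the annotated start, 5′ to 3′ on the gene's strand. They are chr7:73522244-73522543, chr3:52685864-52686163, chr9:2015097-2015396 and chr12:56636310-56636609. The SMARCA2 and BAZ2A windows lie wholly inside their GENCODE genes, at internal starts, so they are not the windows at the outermost GENCODE starts. Capitals mark matches to CCAAT, the box bound by NF-Y, on either strand.
BAZ1B: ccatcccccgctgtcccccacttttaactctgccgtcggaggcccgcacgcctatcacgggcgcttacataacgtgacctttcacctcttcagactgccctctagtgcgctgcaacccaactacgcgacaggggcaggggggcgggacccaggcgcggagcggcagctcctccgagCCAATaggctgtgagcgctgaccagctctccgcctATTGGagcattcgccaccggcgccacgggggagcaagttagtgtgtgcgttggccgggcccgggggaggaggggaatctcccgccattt
PBRM1: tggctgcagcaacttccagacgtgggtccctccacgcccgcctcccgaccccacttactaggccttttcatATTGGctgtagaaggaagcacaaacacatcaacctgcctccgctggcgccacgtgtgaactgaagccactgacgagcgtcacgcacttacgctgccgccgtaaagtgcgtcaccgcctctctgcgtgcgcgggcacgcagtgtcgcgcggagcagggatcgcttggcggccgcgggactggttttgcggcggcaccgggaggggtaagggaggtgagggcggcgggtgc
SMARCA2: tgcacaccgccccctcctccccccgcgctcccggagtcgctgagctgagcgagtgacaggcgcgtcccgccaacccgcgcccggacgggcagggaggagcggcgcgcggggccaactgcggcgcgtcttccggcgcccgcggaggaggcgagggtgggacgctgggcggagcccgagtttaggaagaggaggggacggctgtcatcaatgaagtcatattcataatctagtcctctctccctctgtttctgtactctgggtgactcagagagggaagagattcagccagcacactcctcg
BAZ2A: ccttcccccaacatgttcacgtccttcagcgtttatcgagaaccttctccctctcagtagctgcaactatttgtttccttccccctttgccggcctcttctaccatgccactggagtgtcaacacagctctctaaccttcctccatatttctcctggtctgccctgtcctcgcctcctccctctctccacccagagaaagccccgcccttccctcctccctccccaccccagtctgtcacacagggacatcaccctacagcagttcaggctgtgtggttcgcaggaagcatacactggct

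Promoter windows were matched by symbol for 31 of the 40 genes. The E2F motif searched (TTTCCCGC, TTTCGCGC, TTTGCCGC or TTTGGCGC, both strands) was in 0 of the 31 windows, and in 3.33% of all 27305 windows and 5.19% of those of genes in the table. CCAAT was in 7 of the 31 windows (22.6%), in 35.7% of all windows and in 36.0% of those of genes in the table. Those 7 were BAZ1B with 2 matches, and PBRM1, CHD1, ARID1B, SMARCE1, SMARCB1 and CHD8 with 1 each. By call they were 4 of 12 positive, 0 of 6 negative and 3 of 13 uncalled genes. The CHR element of cell cycle promoters (TTTGAA or TTCGAA, both strands) was in 1 of the 31 windows, that of RSF1, and in 16.6% of all windows and 11.2% of those of genes in the table. A match of letters is a description of the window and not a bound site.

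Within BAF and PBAF the genes specific to PBAF were positive, and the minor ATPase was the one negative gene. Of the 13 genes 5 were positive, 1 negative and 7 not called in the authors' deposited table. All 13 stood at or above the median gene's level, and 46.2% were called, against 51.9% of all genes there. PBRM1, the polybromo protein that reads acetylated histones, had a log2 fold change of 0.44 (approximate SE 0.05, 125 CPM, adjusted p = 2.77e-17). ARID2, its DNA-binding partner in PBAF (chromosome 12, positions 45729665 to 45908040, plus strand), was at 0.41 (SE 0.06, 58.6 CPM, adjusted p = 2.54e-10). The other PBAF-specific subunits, PHF10 and BRD7, which the symbol rule does not take in, were positive at 0.39 and 0.26 (adjusted p = 2.85e-06 and 3.70e-06). PBAF was set apart in this way after the values were seen. With length and GC trends removed PBRM1 was at 0.30 and ARID2 at 0.26, both still called, beside 0.27 for SMARCC2 of the shared core. No such values are given for PHF10 (37.3% GC) and BRD7 (43.1% GC).

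The ARID1 proteins stand in the place of ARID2 in canonical BAF. ARID1B was positive at 0.24 (SE 0.04, 115 CPM, adjusted p = 3.94e-07) and ARID1A, the more abundant of that pair, was at 0.12 (SE 0.06, 276 CPM, adjusted p = 0.0832) and not called. The interval of ARID1B (0.15 to 0.32) overlaps those of ARID1A (0.01 to 0.24) and ARID2 (0.29 to 0.52), while the latter pair do not overlap. Once length and GC trends were removed the values were 0.26 for ARID2, 0.20 for ARID1B and 0.13 for ARID1A. ARID1A was called positive after re-centring on all genes (0.15) or on ribosomal protein genes (0.21). BRD9 (-0.09), GLTSCR1 (-0.13) and GLTSCR1L (0.12), which mark the non-canonical BAF complex, were not called, a group also picked out after the values were seen. In the authors' deposited table, 17 other BAF genes listed beside the 40 gave 5 positive, 2 negative and 10 uncalled. The share called was 41.2%, with 13 of the 17 at or above the median gene's level, where 51.9% of all genes were called. The 3 positive ones with the smallest p were BCL7A (0.34), the actin-like ACTL6A (0.27) and PHF10. ACTB, the actin shared with the cytoskeleton, was negative at -0.13 and DPF1, a neuronal BAF subunit counted among the neuronal markers above as well, at -0.19.

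The core subunits gave 2 positive and 5 uncalled genes of 7, in a range of log2 fold changes from -0.05 to 0.23. That is 28.6% called, against 51.9% of all genes at or above the median gene's level, where all 7 stood. SMARCC2, one of 2 scaffold paralogues, was positive at 0.23 (SE 0.05, 102 CPM, adjusted p = 5.88e-05). SMARCC1, the other, was positive at 0.09 with an SE of only 0.02 (384 CPM, adjusted p = 8.07e-08), a precision taken up below. SMARCB1 (0.03), SMARCE1 (0.06), SMARCD1 (0.07), SMARCD2 (-0.05) and SMARCD3 (0.01) were not called, and the interval of each includes 0, that of SMARCD1 barely. With length and GC trends removed SMARCD1 (0.13) and SMARCD3 (0.19) were called positive, and re-centring on ribosomal protein genes also made SMARCD1 (0.15) and SMARCE1 (0.14) positive. For SMARCB1, lost in rhabdoid tumours, that interval runs from -0.07 to 0.13.

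The alternative ATPases of the complex parted. SMARCA4 (BRG1) had a log2 fold change of 0.07 (SE 0.03, 551 CPM, adjusted p = 0.0943) and was not called. SMARCA2 (BRM) was at -0.61 (SE 0.07, 31.9 CPM, adjusted p = 2.58e-15), or 1.53-fold lower where TFDP1 transcript was higher. Their intervals, 0.004 to 0.13 and -0.76 to -0.47, do not overlap. Per kilobase of the longest coding transcript SMARCA4 stood at 95.2 CPM and SMARCA2 at 4.52 CPM, 21.1-fold less, so the larger difference belongs to the scarcer ATPase. SMARCA4 was called positive after re-centring on all genes or on ribosomal protein genes, and with the trends of fold change over length and GC content taken out.

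The ISWI genes were called in 7 of 8 cases, with 4 positive and 3 negative. That is 87.5%, against 51.9% of all genes at or above the median gene's level, where all 8 stood. SMARCA5 (SNF2H), the widely expressed ATPase, was positive at a log2 fold change of 0.16 (SE 0.04, 267 CPM, adjusted p = 8.60e-04) in the authors' deposited table. SMARCA1 (SNF2L; chromosome X, positions 129446501 to 129523500, minus strand) was negative at -0.25 (SE 0.04, 192 CPM, adjusted p = 1.51e-08). Their intervals, 0.08 to 0.25 and -0.33 to -0.17, do not overlap, and their levels per kilobase were 33.7 and 46.9 CPM. Of the BAZ proteins, which pair with these ATPases, both BAZ1 genes were positive and both BAZ2 genes negative. BAZ1B (WSTF) was at 0.45 (SE 0.05, 317 CPM, adjusted p = 1.96e-17), the highest log2 fold change of the 40, and BAZ1A (ACF1) at 0.13 (SE 0.05, 202 CPM, adjusted p = 0.0336).

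BAZ2A (TIP5), which with SMARCA5 forms the complex that silences ribosomal DNA, was negative at -0.26 (SE 0.04, 214 CPM, adjusted p = 5.75e-09). Its paralogue BAZ2B was at -0.25 (SE 0.08, 25.3 CPM, adjusted p = 0.00592). As deposited the BAZ2 pair had values 0.01 apart, although their levels per kilobase were 24.3 CPM for BAZ2A and 3.06 CPM for BAZ2B. The interval of BAZ2B runs from -0.40 to -0.10, so a larger gap is possible. With length and GC trends removed BAZ2A was at -0.31 and BAZ2B at -0.40. RSF1, a histone-binding partner of SMARCA5, was positive at 0.15 (SE 0.06, 74.6 CPM, adjusted p = 0.0220). BPTF, the largest subunit of the NURF complex, was at 0.07 (SE 0.06, adjusted p = 0.362) and not called. With length and GC trends removed SMARCA5 (0.01), BAZ1A (0.02) and RSF1 (-0.02) were no longer called, and BAZ1B, BAZ2A, BAZ2B and SMARCA1 still were. Re-centred on ribosomal protein genes, BAZ2B was not called at -0.17. Of 7 other genes listed for ISWI 3 were positive and 0 negative in the authors' deposited table: RBBP7 (0.41), a histone-binding subunit also found elsewhere, POLE3 (0.26) and CHRAC1 (0.21), the histone-fold pair of the CHRAC complex. These 3 are 42.9% of the list, against 51.9% of all genes at or above the median gene's level, where all 7 stood.

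**Figure D3:**
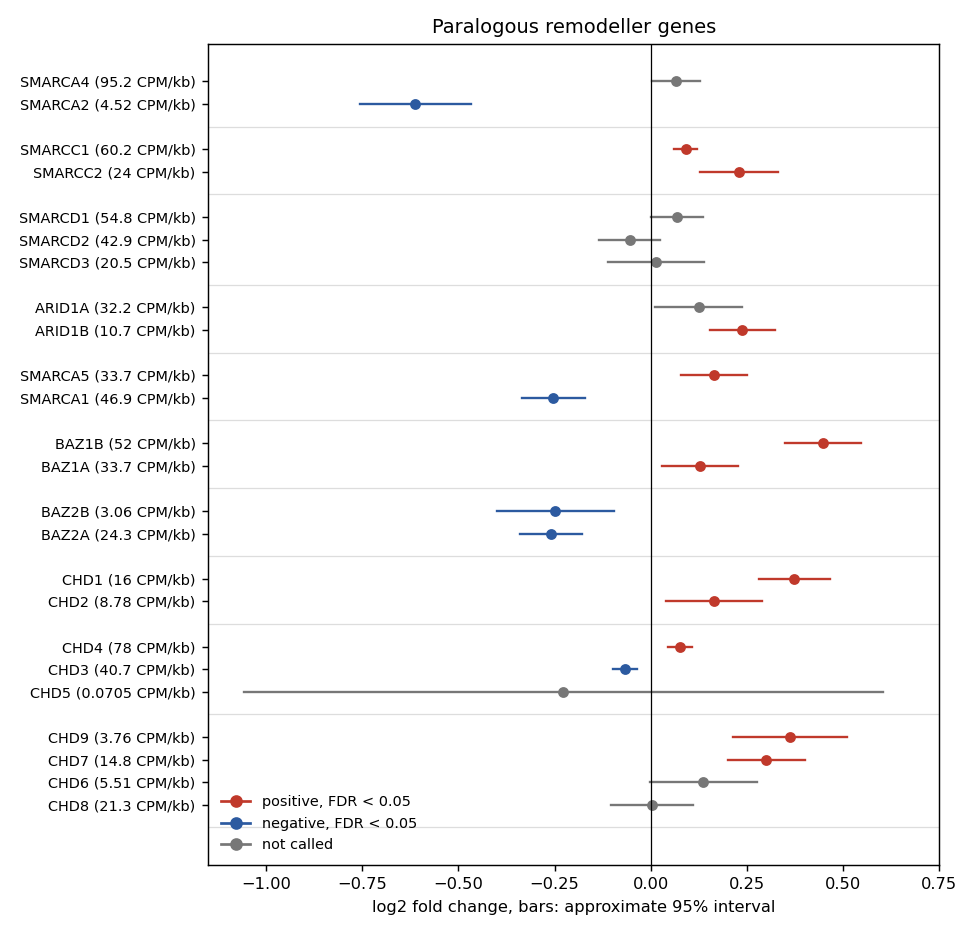
Log2 fold change (x axis) with approximate 95% intervals for paralogous remodeller genes, each with its mean level in CPM per kilobase of its longest coding transcript. The intervals do not overlap within the pairs SMARCA4 and SMARCA2, SMARCC1 and SMARCC2, SMARCA5 and SMARCA1, BAZ1B and BAZ1A, and CHD4 and CHD3, nor between CHD8 and either CHD7 or CHD9, but those of SMARCC1 and SMARCC2 and of CHD4 and CHD3 overlap once each SE is raised to at least the median at its level.

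Among the 9 CHD genes 5 were positive, 1 negative and 3 not called. That is 66.7% called, with 8 of the 9 at or above the median gene's level, where 51.9% of all genes were. CHD1, which binds methylated lysine 4 of histone H3 at active genes (chromosome 5, positions 98853985 to 98928957, minus strand), was at 0.37 (SE 0.05, 130 CPM, adjusted p = 7.32e-14) in the authors' deposited table. Its paralogue CHD2 was at 0.16 (SE 0.06, 82.2 CPM, adjusted p = 0.0317), with an interval that overlaps that of CHD1, and was not called with length and GC trends removed. In the third subfamily CHD9 was at 0.36 (SE 0.08, 49.3 CPM, adjusted p = 1.29e-05) and CHD7, the CHARGE syndrome gene, at 0.30 (SE 0.05, 171 CPM, adjusted p = 4.09e-08). CHD6 (0.14, SE 0.07, adjusted p = 0.130) was not called. CHD8, at 180 CPM, had a log2 fold change of 0.003 (SE 0.05), and its interval of -0.10 to 0.11 overlaps neither that of CHD7 nor that of CHD9. Removing the length and GC trends left CHD1 (0.20), CHD9 (0.18) and CHD7 (0.21) positive at lower values.

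The NuRD motors lay on opposite sides by small amounts as deposited, but neither call held in every alternative, as given below. CHD4 was at 0.08 (SE 0.02, 520 CPM, adjusted p = 6.84e-06) and CHD3 at -0.07 (SE 0.02, 299.5 CPM, adjusted p = 2.35e-04). CHD5, the neuronal paralogue, stood at 0.68 CPM, and its interval of -1.06 to 0.60 is too wide to place it. In the authors' deposited table the 11 other genes listed with the CHD proteins gave 3 positive, 2 negative and 6 uncalled. The share called was 45.5%, against 51.9% of all genes at or above the median gene's level, where all 11 stood. Subunits of NuRD in this list differed in sign: MBD2 (0.56), a reader of methylated DNA, GATAD2B (0.41) and CDK2AP1 (0.28) were positive. The scaffold genes MTA3 (-0.21) and MTA2 (-0.13) were negative. The deacetylases HDAC1 (-0.05) and HDAC2 (-0.03) were not called.

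SMARCC1, CHD4 and CHD3 combined small fold changes with unusually small SE. Their SE were 0.34 to 0.38 times the median of genes at their level. Of the other remodellers above 1 CPM, 34 had SE of 0.73 to 1.36 times that median, and EP400 lay above this range. Such a ratio, under 0.4, was found in 31 of 7897 genes at or above the median level (0.393%). With every SE raised to at least the median at its level, an alternative added after the data were seen, SMARCC1, CHD4 and CHD3 were not called. SMARCC1 was also not called, at 0.02, with length and GC trends removed. Re-centred on ribosomal protein genes CHD3 was at 0.02 and not called, so its direction depends on the scaling.

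**Figure D4:**
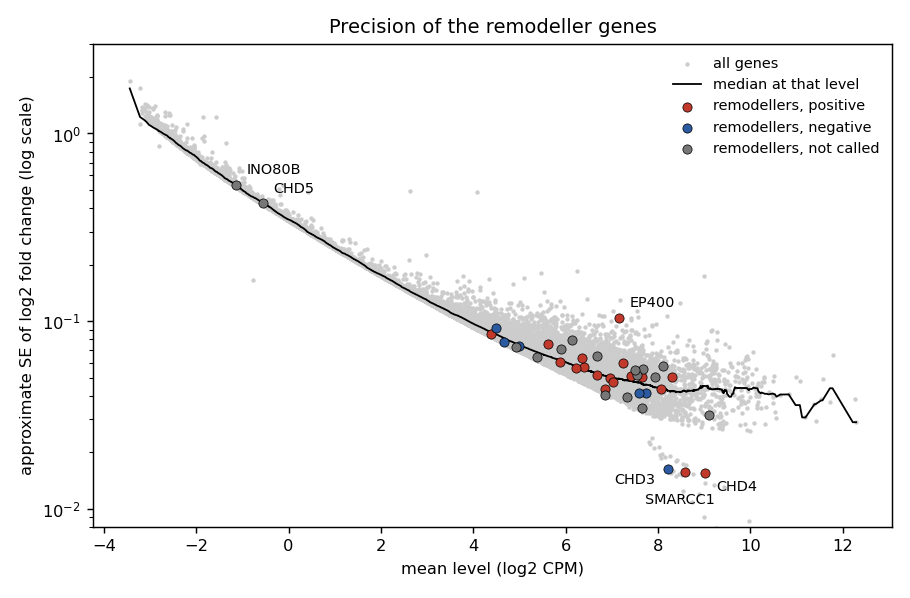
Approximate SE of the log2 fold change (y axis, log scale) against mean level in log2 CPM (x axis), with all genes in grey, the median at each level as a line and the 40 remodellers in colour. CHD3, SMARCC1 and CHD4 sit in a sparse band below the other genes, and EP400 lies above the line.

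The INO80, SRCAP and EP400 genes gave 3 positive, 1 negative and 3 uncalled of 7. That is 57.1% called, against 39.5% of all genes. At or above the median gene's level, where 4 of the 7 stood, 51.9% of all genes were called. INO80, the ATPase that moves nucleosomes at origins and promoters, was at 0.16 (SE 0.06, 84.7 CPM, adjusted p = 0.0200) in the authors' deposited table, and its subunit gene INO80D at 0.23 (SE 0.08, 21.0 CPM, adjusted p = 0.0245). EP400 was at 0.30 (SE 0.10, 142 CPM, adjusted p = 0.0131), with an SE 2.12 times the median at its level, a ratio over 2 that 25 of 7897 genes (0.317%) shared. SRCAP, which deposits H2A.Z, was at 0.04 (SE 0.05, 244 CPM, adjusted p = 0.600) and not called. INO80C was negative at -0.27 (SE 0.09, 22.6 CPM, adjusted p = 0.0122), and INO80E (0.04) was not called. INO80 and INO80D were not called with length and GC trends removed, and INO80C not when re-centred on ribosomal protein genes.

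INO80B had the lowest log2 fold change of the 40, -1.12, but at 0.453 CPM with an SE of 0.53, and it was not called (adjusted p = 0.0908). In GENCODE 29, 72.0% of its exonic bases are shared with the read-through gene INO80B-WBP1 on the same strand, so its level and change are uncertain. Other same-strand overlaps over 10% of the exonic bases were those of SRCAP (74.1%), CHD4 (46.9%), SMARCE1 (19.8%) and CHD2 (10.2%). With the opposite strand counted, INO80E (23.5%), SMARCB1 (17.7%), SMARCD3 (13.8%), SMARCA5 (13.5%) and BAZ1A (12.4%) passed 10% as well. The sources used here do not give how reads in such overlaps were assigned or whether strand was used. Of 25 other genes listed for these complexes 6 were positive, 4 negative and 15 not called in the authors' deposited table. The share called was 40%, with 24 of the 25 at or above the median gene's level, where 51.9% of all genes were called. Positive with the smallest p were YY1 (0.19), MEAF6 (0.21) and KAT5 (0.23), the acetyltransferase of the EP400 complex. Negative were ZNHIT1 (-0.47), an SRCAP subunit, MORF4L1 (-0.16) and RUVBL2 (-0.15), while RUVBL1 (0.06), its partner in the hexameric helicase ring, was not called.

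Of the remaining 3 ATPases, ATRX, which deposits histone H3.3 with DAXX at repeats and telomeres, was positive at 0.26 (SE 0.06, 152 CPM, adjusted p = 7.25e-05) in the authors' deposited table. DAXX was at 0.07 (adjusted p = 0.375) and not called. SMARCAD1, active at replication forks and in DNA end resection, was at 0.15 (SE 0.06, adjusted p = 0.0559), just above the threshold, and was called positive when p-values were adjusted over the rows of the table alone. SMARCAL1, which rewinds DNA at stalled forks, was at -0.07 (SE 0.07, adjusted p = 0.481) and not called. With length and GC trends removed ATRX was at 0.07 and SMARCAD1 (36.0% GC) at 0.009, and neither was called.

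Remodeller transcripts are long, and the calls differed with length and base composition. The median length of the longest coding transcript was 7440 bases for the 40 genes and 3249 for all annotated genes, and their GC content ranged from 36.0% to 62.7%. Of the 20 longer remodellers 12 were positive and 2 negative, and of the 20 shorter 6 and 4. Of the 20 with lower GC content 12 were positive and 4 negative, and of the 20 with higher GC content 6 and 2. Among all genes at or above the median gene's level, 38.6% of genes with transcripts at least as long as the remodellers' median were positive, against 23.8% of shorter ones. By GC content the positive shares there were 35.8% below the remodellers' median of 47.7% and 16.2% above it. The negative shares there were 14.4% below and 37.5% above, whereas the remodellers had 4 of 20 negative below and 2 of 20 above. Across the 40 genes Spearman's rho of log2 fold change was 0.46 with length and -0.41 with GC content, a description over genes of the same libraries that share these properties.

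With lowess trends on length and GC content removed, 14 remodellers were positive and 6 negative, against 18.1% and 20.2% of the 14777 annotated genes. Those shares cover genes of any level. As deposited fewer of such genes were called than at the remodellers' level (39.5% against 51.9%), and no share matched for level was computed here. The 14 included 10 of the 18 positive as deposited. Their other 4, SMARCA4 (0.15), SMARCD1 (0.13), SMARCD3 (0.19) and INO80E (0.22), are rich in GC, at 54.7% to 62.7%. All 6 negative calls, those of SMARCA2, SMARCA1, BAZ2A, BAZ2B, INO80C and CHD3, were kept. The removal made all of these but CHD3 more negative, as for SMARCA2 (-0.73) and BAZ2B (-0.40). Their being kept is therefore no sign that they are firmer than the positive calls. The genes positive in the main comparison and in all 7 alternatives were BAZ1B, PBRM1, ARID2, ARID1B, SMARCC2, CHD1, CHD7 and CHD9, and those negative in all were SMARCA2, SMARCA1 and BAZ2A.

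**Figure D5:**
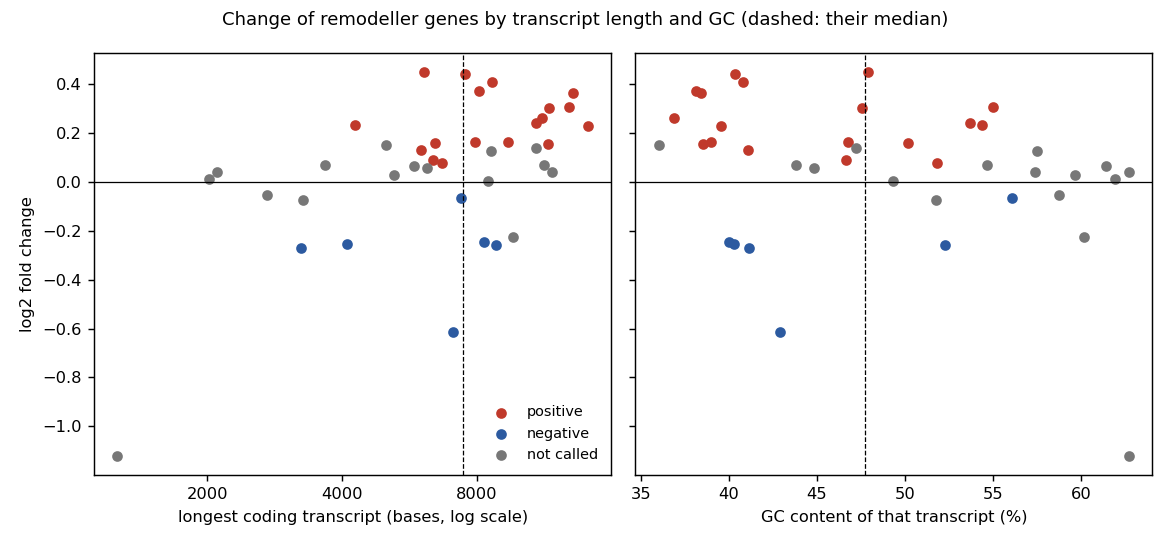
Log2 fold change (y axis) of the 40 remodellers against the length of their longest coding transcript (left, log scale) and its GC content (right), coloured by call, with the remodellers' medians dashed. Of 20 genes right of the length median 12 are positive, as are 12 of the 20 left of the GC median.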

How the data were processed

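RNA from 3 TFDP1-targeted and 3 control samples was compared by the authors. Per the submitters' processing notes the builds were hg38 and dm6 and the tools edgeR, featureCounts, HISAT2 and Trimmomatic. The sources used here do not give versions, the strand setting or the library scaling (human reads or spike-in). The authors' deposited table holds log2 fold changes, log2 CPM, a likelihood ratio (a score per gene) and p-values with their FDR, from edgeR's likelihood ratio test per the file headers and those notes.

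Calls are the authors' FDR under 0.05. The approximate SE is the absolute log2 fold change over the square root of the likelihood ratio. Alternatives re-centred the fold changes or removed lowess trends (span 0.3, statsmodels 0.14.6), recomputed p from a normal z and adjusted it by Benjamini-Hochberg over the table. This step was run on simulated data with noise drawn from the same SE and with length and GC content independent of each other. Such a run checks the calculation and cannot test the approximate SE. The local SE median used genes within 0.25 log2 CPM. GENCODE 29 (GRCh38) matched 14777 genes (93.6%) by symbol; promoters came from RefSeq (GRCh38.p14). Scripts used Python 3.11.15, pandas 2.3.3, numpy 2.4.6, scipy 1.17.1 and matplotlib 3.10.9.

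Members and lists were chosen with earlier results of these data known. Every member may be named; of the other subunits, the 3 called genes per direction and complex with the smallest p are, and any further ones were chosen after their values were seen. Set tests were not made.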

Additional observations from a re-analysis of the deposited data

How the results depend on the processing

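No paired analysis was possible because no values per sample were analysed here, and leaving out replicates was not run for the same reason. Against 18 positive and 6 negative remodellers, the 7 alternatives gave 12 to 26 positive and 3 to 6 negative. The lowest positive count came with an FDR threshold of 0.01 (12 and 5). Re-centring on the median of 77 ribosomal protein genes (-0.08) gave 3 negative genes and moved the remodellers' median log2 fold change from 0.08 to 0.17. Under it CHD3 changed sign, to 0.0158, and was not called. BPTF (0.15), CHD6 (0.22) and SRCAP (0.12), not called as deposited, were positive with that re-centring. With length and GC trends removed RSF1 changed sign, to -0.0217, and was not called. Of the 40 genes 17 kept their call under every alternative that tested them. Depth per library is unknown, and INO80B and CHD5, under 1 CPM, could not be placed.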

Other observations

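A list of 12 further genes, mostly SNF2-like ATPases and DNA translocases outside the 40, gave 6 positive, 1 negative and 5 uncalled genes in the authors' deposited table, with a median log2 fold change of 0.23. That is 58.3% called, against 39.5% of all genes. At or above the median gene's level, where 8 of the 12 stood, 51.9% of all genes were called. SHPRH (0.46), a ubiquitin ligase that acts on PCNA, ERCC6L2 (0.44) and RAD54B (0.38), a recombination motor, were the positive genes with the smallest p. HLTF, the other PCNA ubiquitin ligase of this kind, was negative at -0.27 (approximate SE 0.09, adjusted p = 0.0149), so SHPRH and HLTF lay on opposite sides. The SE of HLTF was 1.81 times the median at its level, so its value is less certain than that of most genes there. Transcript GC content was 40.4% for SHPRH, 38.7% for ERCC6L2, 37.5% for RAD54B and 36.6% for HLTF. Values with length and GC trends removed are not given for the genes of this list. HELLS (0.29), the remodeller needed for DNA methylation at repeats, RAD54L (0.24) and ZRANB3 (0.26) were also positive and were chosen for naming after their values were seen. All 72 other subunits together were 31.9% positive and 12.5% negative, with 63 of them at or above the median gene's level. At or above that level 25.4% of all genes were positive and 26.5% negative. The lymphoid factor BCL11B, listed with BAF, had the highest log2 fold change of these 72, 0.67, at 5.61 CPM.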
